A study of Homo sapiens with 12 samples.

Results

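The dexamethasone response of LNCaPabl-Enza was followed on 6 of the 12 arrays of the series: 3 arrays of cells given the solvent DMSO (Enza_Ctrl) and 3 arrays of cells given 100 nM dexamethasone (Enza_Dex), both for 24 h. Members were taken by their titles, with earlier results of these data known. LNCaPabl-Enza is a subline of the established human prostate cancer line LNCaP, and the labels spell out neither Enza nor the Abi of the second line, LNCaPabl-Abi. That line has 3 DMSO arrays (Abi_Ctrl) and 3 dexamethasone arrays (Abi_Dex), which serve here as the comparison. Cells of all 4 groups were seeded the day before treatment, and 150 ng of RNA went into each target preparation. The growth medium described for LNCaP is RPMI with 10% fetal calf serum. The labels do not say whether the serum was stripped of steroids, whether a drug was kept in the medium, or whether the 3 replicates of a group were separate cultures. The p-values therefore rest on the spread among these arrays alone, part of which may be technical. Levels are deposited log2 values, and a fold is on that scale, whose range of 1.66 to 18.6 is wide and can make a fold larger than the change in RNA.

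Dexamethasone is a synthetic glucocorticoid. It binds the glucocorticoid receptor, the product of NR3C1, which leaves its cytoplasmic chaperones, enters the nucleus and binds DNA, often at pairs of the half-site AGAACA, to raise or lower nearby genes. In prostate epithelium glucocorticoids can act on genes best known for their induction by androgens, among them serine proteases such as TMPRSS2 and the kallikreins. Glucocorticoids are also known to lower the RNA of their own receptor in many cells.

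A single array of the untreated cells stood apart. Enza_Ctrl replicate 2 had a median Pearson r of 0.855 with the other arrays across genes, against 0.986 to 0.990 for each of the other 11. Its poly-A spike-ins averaged 3.46 against 7.07 to 8.10, and the SD of its levels was 2.76 against 3.40 to 3.45. Counts and differences below are therefore given for all 12 arrays and again with this array left out, and where only 1 value stands it is named. Both Enza arrays numbered 3 differed from the others in another way, described with NR3C1.

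The label of a luminal prostate epithelial line was set against marker genes. Of 13 measured luminal markers, 10 were in the bright class and 0 in the dim class when all genes were cut by level into 3 classes of equal size (dim, middle and bright), with a median level of 12.3 over the 5 Enza arrays other than Enza_Ctrl replicate 2. Keratin 8 (KRT8) was between 13.81 and 14.63 on all 6 Enza arrays. Lists of markers of other cell types had low median levels: 4.21 for 7 basal epithelial, 4.23 for 14 neuroendocrine, 4.02 for 14 fibroblast, 3.87 for 14 immune and 4.10 for 10 endothelial markers. In that order 4, 9, 10, 9 and 6 of them were in the dim class, and the bright class held 2 basal and 1 fibroblast marker. The level of a gene also depends on its probes, so the classes are only a coarse guide.

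NR3C1, the gene of the receptor that dexamethasone activates, was uneven across the Enza arrays. Its level in Enza_Ctrl was 6.51, 7.43 and 10.37 on replicates 1, 2 and 3, and in Enza_Dex it was 6.72, 6.38 and 9.03. The arrays numbered 3 were the highest of both groups, and the groups overlapped. The difference, dexamethasone minus DMSO, was -0.73 ± 0.88 (SE) with 12 arrays (limma adjusted p = 0.638) and -1.06 ± 0.84 without Enza_Ctrl replicate 2 (limma adjusted p = 1.00 after rounding). The sign depended on which arrays were used. Without Enza_Ctrl replicate 3 the difference was 0.40, with Enza_Dex replicate 3 kept. Without both arrays numbered 3 it stayed negative, and without Enza_Ctrl replicate 2 as well it was 0.038. On the LNCaPabl-Abi arrays NR3C1 was at 11.1, 11.3 and 11.5 in Abi_Ctrl and at 9.4, 10.0 and 10.2 in Abi_Dex, without overlap. The LNCaPabl-Abi difference was -1.45 ± 0.75 (SE) in the fit without Enza_Ctrl replicate 2. All LNCaPabl-Abi arrays lay above every Enza array other than those numbered 3. Enza_Ctrl replicate 3 lay below every Abi_Ctrl array and above every Abi_Dex array. Enza_Dex replicate 3 lay just below the Abi_Dex arrays.

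NR3C1 was 1 of 22 genes for which both Enza arrays numbered 3 were at least 1 log2 unit above the other 4 Enza arrays, and 4 genes lay as far below them. With Enza_Ctrl replicate 2 left out of that comparison there were 24 higher and 14 lower. With all 6 Enza arrays the same count was 1 higher and 0 lower for the arrays numbered 1, and 3 higher and 2 lower for those numbered 2. P3H2, a collagen-modifying prolyl hydroxylase gene, had 8.26 and 8.27 on the arrays numbered 3 and 4.78 to 5.90 on the others. LEF1, a transcription factor gene of the Wnt pathway, had 12.44 and 12.48 against 10.12 to 10.60. In the other direction, CA1, a carbonic anhydrase gene, was at 5.97 and 5.36 against 9.13 to 10.47, and GPNMB, a transmembrane glycoprotein gene, at 10.36 and 10.70 against 12.02 to 13.46. These genes were picked by that gap, so their separation is a description. For P3H2, LEF1 and NR3C1, every LNCaPabl-Abi array lay above the other 4 Enza arrays. The same held for FLRT3, CYP1A2, CHN1, SDC2, LRRTM1, PLXDC2, TLE1 and HMCN1, also higher on the arrays numbered 3. For CA1, GPNMB, TMSB10 and LXN, lower on the arrays numbered 3, every LNCaPabl-Abi array lay below the other 4. All these genes thus differed in the direction of LNCaPabl-Abi. SI, the sucrase-isomaltase gene, went the other way. On it the arrays numbered 3 had 9.42 and 8.88 against 6.32 to 6.94, while no LNCaPabl-Abi array was above 4.17. What set these 2 arrays apart was not tested.

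**Figure D1:**
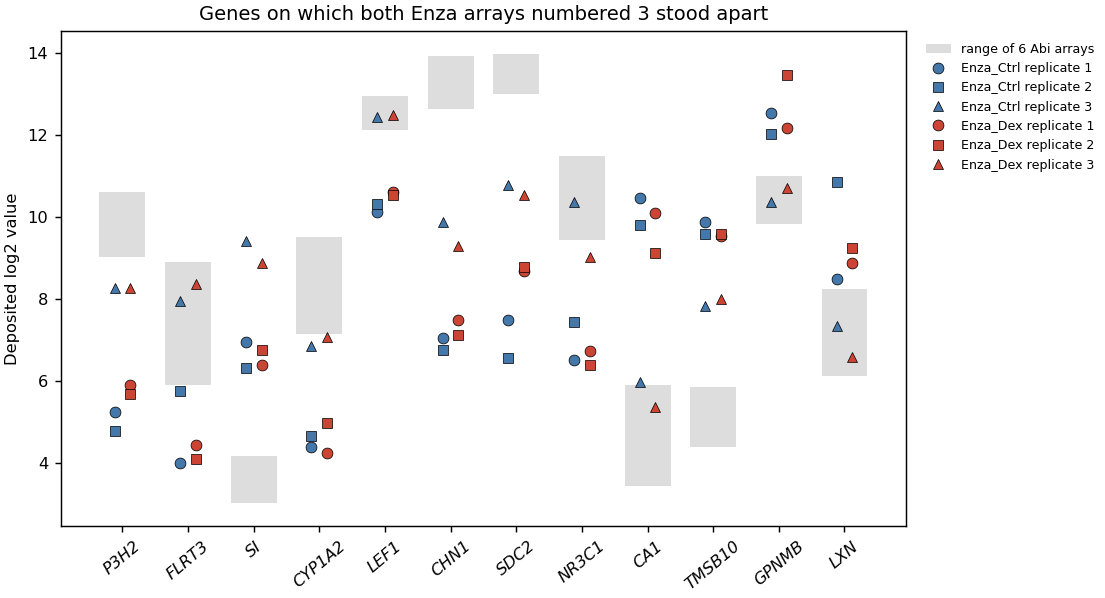
Deposited log2 levels (vertical axis) of 12 genes (horizontal axis) with the widest gap between both Enza arrays numbered 3 (triangles) and the other Enza arrays (circles, replicate 1; squares, replicate 2); DMSO is blue, dexamethasone red, and grey bars span the 6 LNCaPabl-Abi arrays. NR3C1 is at 10.37 and 9.03 on the triangles and at 6.38 to 7.43 elsewhere, and on every gene shown the blue and red triangles lie on the same side of the other points.

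SGK1 had the largest positive difference and the smallest p in both sets of arrays, Y-linked genes not considered. It encodes serum- and glucocorticoid-regulated kinase 1, which keeps epithelial sodium channels at the cell surface and is a standard target of the receptor. Its level was 6.13, 6.17 and 6.89 on the Enza_Ctrl arrays and 9.66, 9.99 and 13.20 on the Enza_Dex arrays. All 3 treated arrays lay above all 3 untreated ones, and Enza_Dex replicate 3 lay more than 3 log2 units above the other two, close to the Abi_Dex arrays at 13.59, 13.29 and 13.83. The mean was 6.40 ± 0.43 in Enza_Ctrl and 10.95 ± 1.95 in Enza_Dex (SD, n = 3). The difference was 4.55 ± 0.73 (SE) on the log2 scale or 23.4-fold, with a limma adjusted p of 0.523. Without Enza_Ctrl replicate 2 it was 4.43 ± 0.70 (SE), 21.6-fold, with a limma adjusted p of 0.269.

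SGK1 was called when Enza_Dex replicate 3 was left out. This lowered the difference to 3.43 ± 0.33 (SE), 10.7-fold, and its limma adjusted p to 0.0194. With both arrays numbered 3 left out the values were 3.67 ± 0.32 and 0.0165. With Enza_Ctrl replicate 2 left out as well they were 3.69 ± 0.34, 12.9-fold, and 0.00162, although a single Enza_Ctrl array then remains and is assumed to vary like the other groups. Leaving out Enza_Ctrl replicate 2 and Enza_Dex replicate 3 gave 3.31 ± 0.30 and 0.000687. SGK1 was the only gene called in each of these 4 fits, of which all but the first were chosen after seeing the data.

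**Figure D2:**
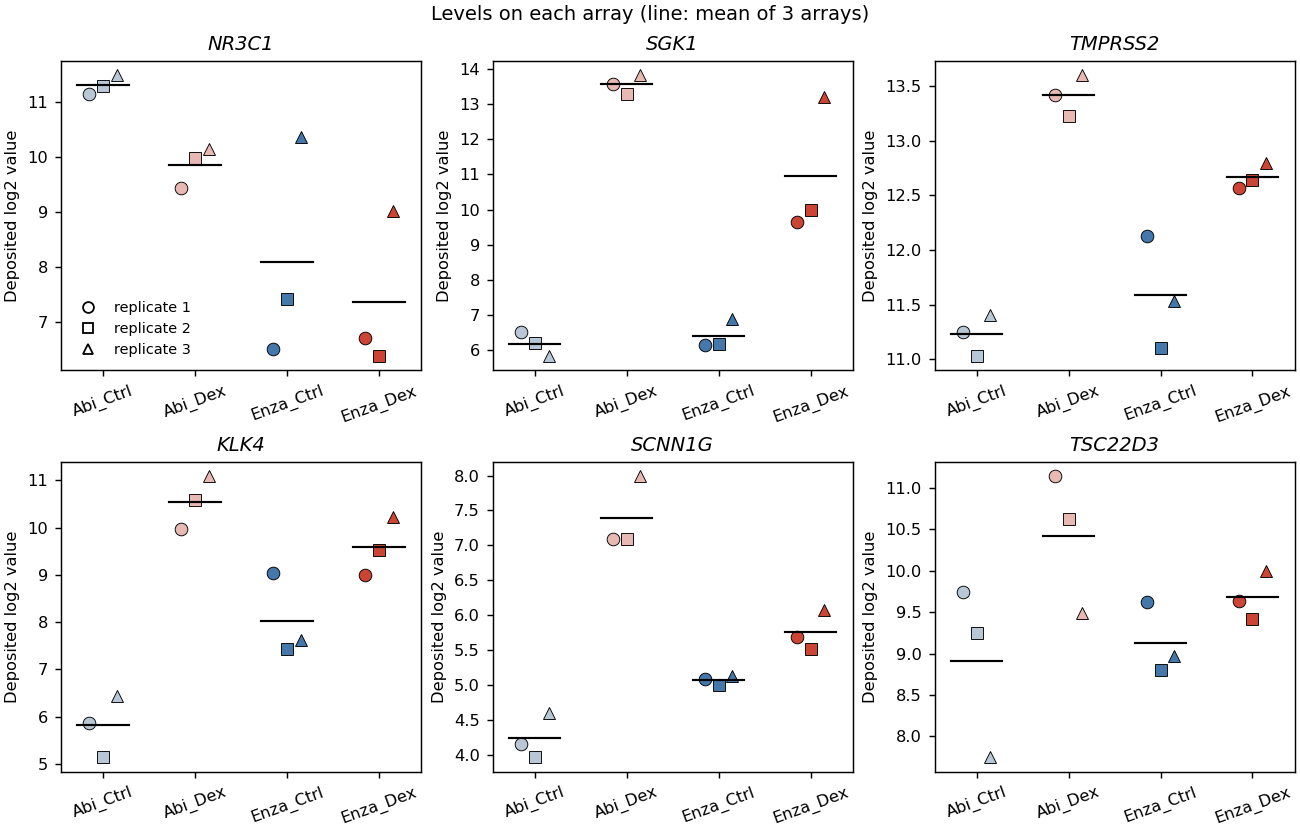
Deposited log2 level (vertical axes) of NR3C1, SGK1, TMPRSS2, KLK4, SCNN1G and TSC22D3 on each of the 12 arrays, by group (horizontal axes); circles, squares and triangles are replicates 1, 2 and 3 and the line is the mean of 3 arrays. SGK1 on Enza_Dex is at 9.66, 9.99 and 13.20, all above the Enza_Ctrl arrays at 6.13 to 6.89, while KLK4 and TSC22D3 overlap between the 2 Enza groups.

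SGK1 has 3 start sites in the RefSeq promoter table (GRCh38.p14), each given there from 250 bases before to 50 after the start, and the array does not tell them apart. A pair is shown because they differ in the receptor's half-site: on the minus strand, the window at chr6:134177812-134178111 holds AGAACA, in capitals, just after the start, and the window at chr6:134174817-134175116 holds none and is rich in G and C. The window of the remaining start site, not shown, holds none either.
SGK1, chr6:134177812-134178111: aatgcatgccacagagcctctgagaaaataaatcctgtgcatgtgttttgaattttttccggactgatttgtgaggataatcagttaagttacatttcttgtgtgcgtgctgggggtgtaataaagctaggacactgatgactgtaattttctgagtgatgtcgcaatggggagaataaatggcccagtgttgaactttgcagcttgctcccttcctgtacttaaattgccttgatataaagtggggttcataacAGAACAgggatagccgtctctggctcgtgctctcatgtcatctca
SGK1, chr6:134174817-134175116: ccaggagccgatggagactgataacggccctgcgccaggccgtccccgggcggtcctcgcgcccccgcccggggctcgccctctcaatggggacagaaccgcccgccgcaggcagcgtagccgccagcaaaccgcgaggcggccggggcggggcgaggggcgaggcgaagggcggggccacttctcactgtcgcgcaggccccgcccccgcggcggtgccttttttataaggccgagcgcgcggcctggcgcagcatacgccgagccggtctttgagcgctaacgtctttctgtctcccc
The half-site, searched on both strands, occurred in 5192 of the 35116 promoter windows of the table, which is 14.8%. The full palindrome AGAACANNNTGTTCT, which contains the half-site and its reverse complement, occurred in 1 window (0.00285%), and the looser GNACANNNTGTNC, of which the full palindrome is one case, in 137 (0.39%). Neither palindrome was in the SGK1 windows. Such a match is a string of letters in a short window, not a bound site.

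Across all 17687 genes, limma called 0 (0%) at an adjusted p under 0.05, in both sets of arrays. At an unadjusted p below that value there were 236 higher (1.33%) and 464 lower (2.62%) with 12 arrays, and 244 higher (1.38%) and 286 lower (1.62%) without that array. All 3 Enza_Dex arrays lay above all 3 Enza_Ctrl arrays for 701 genes (3.96%) and below them for 844 (4.77%), together 1545 (8.74%). Without Enza_Ctrl replicate 2, where 3 arrays face 2, these were 1403 (7.93%) and 1402 (7.93%). Groups this small also separate for some genes without any response, and more readily with 3 arrays against 2. These counts alone therefore do not show a response.

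The sign of a gene's difference moved with its level when Enza_Ctrl replicate 2 was used. In the dim class, with levels of 2.36 to 4.55, the median difference was -0.42 with 12 arrays and -0.020 without it. In the bright class, which reaches 18.3, it was 0.37 and 0.016. With that array 87.1% of bright genes and 15.8% of dim genes had a positive difference, against 54.8% and 46.7% without it. Of the 844 genes with no overlap that were lower, 588 were dim, and of the 701 that were higher, 319 were bright.

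**Figure D3:**
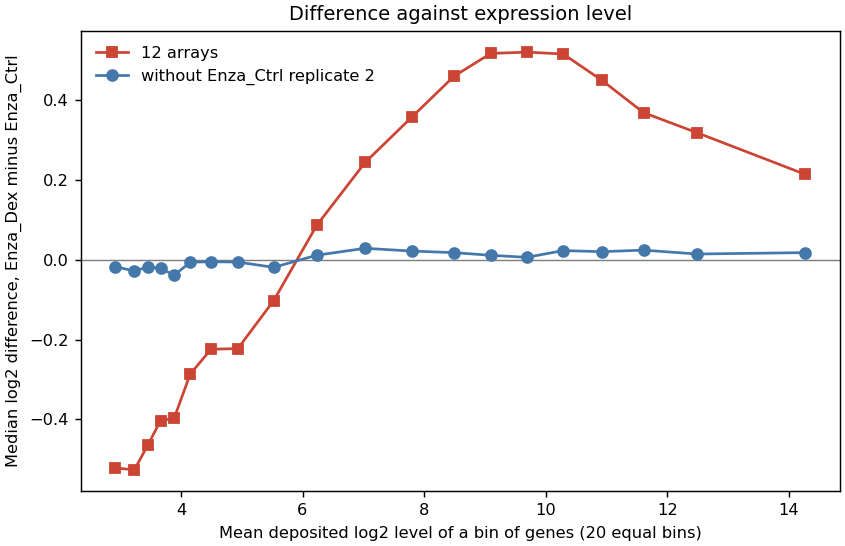
Median log2 difference between Enza_Dex and Enza_Ctrl (vertical axis) in 20 bins of equal numbers of genes, ordered by their mean deposited log2 level (horizontal axis), with 12 arrays (red squares) and without Enza_Ctrl replicate 2 (blue circles). The red line goes from below to above 0 as the level increases, with medians of -0.42 in the dim and 0.37 in the bright class, and the blue line stays near 0.

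Among genes with no overlap between the groups, those with the smallest p are named here, with no gene past the adjusted threshold. They were chosen by p, so the values describe them. After SGK1, TMPRSS2 had the smallest p among the higher ones with 12 arrays. TMPRSS2, a membrane serine protease of prostate epithelium known for its induction by androgens, had 12.13, 11.10 and 11.53 in Enza_Ctrl and 12.56, 12.64 and 12.79 in Enza_Dex. The difference was 1.08 ± 0.27 (SE; 2.11-fold) with 12 arrays (limma adjusted p = 0.523) and 0.83 ± 0.22 without Enza_Ctrl replicate 2 (limma adjusted p = 1.00 after rounding). The 3 treated arrays lay close together, and the untreated array nearest to them was replicate 1.

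SLC38A7, an amino acid transporter gene, was higher by 1.29 ± 0.33 (SE) with 12 arrays and 1.01 ± 0.28 without Enza_Ctrl replicate 2. NOS1AP, an adaptor of neuronal nitric oxide synthase, was higher by 0.93 ± 0.25 and 0.78 ± 0.22, and MPPE1, a phosphoesterase gene, by 1.60 ± 0.43 and 1.04 ± 0.27. TMPRSS11E, another membrane serine protease, had 6.19, 6.35 and 6.28 in Enza_Ctrl and 6.84, 7.45 and 7.10 in Enza_Dex. AKAP5, which anchors protein kinase A, had 5.63, 6.13 and 5.62 against 6.71, 6.42 and 6.37. The untreated arrays of TMPRSS11E lay close together, while for AKAP5 Enza_Ctrl replicate 2 lay nearer to the lowest treated array than to the other untreated ones. C1orf185 was the dimmest of the higher genes, at 3.80 to 3.84 against 4.43 to 4.57. In each set of arrays 1 of the 8 genes is Y-linked and is counted but not named.

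The lower genes were dim: of the 9 named, 8 lay in the dim class and 1 in the middle class, against 1 of 8 dim among those higher. TINAG, a basement membrane glycoprotein gene of kidney tubules, had 5.08, 5.16 and 4.54 in Enza_Ctrl and 3.52, 3.48 and 3.84 in Enza_Dex, a difference of -1.31 ± 0.24 (SE) with a limma adjusted p of 0.523. It was -1.19 ± 0.23 when Enza_Ctrl replicate 2 was dropped (limma adjusted p = 0.913). FCGBP, a mucus protein gene, had 4.15, 4.56 and 4.28 against 3.38, 3.25 and 2.94. FRZB, a secreted Wnt antagonist gene, had 4.84, 5.82 and 5.09 against 4.04, 4.30 and 4.03. The remaining 6, GPR149, C12orf56, KLHL1, FCRL1, DPPA3 and PRSS37, had differences between -1.10 and -0.84 without Enza_Ctrl replicate 2. These levels lie near the background control probes, which averaged 4.50 to 4.60 on the 11 arrays other than Enza_Ctrl replicate 2.

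The genes that dexamethasone raised in LNCaPabl-Abi gave a set chosen on other arrays. In the fit without Enza_Ctrl replicate 2, limma called 25 of 17687 genes (0.141%) higher in Abi_Dex than in Abi_Ctrl, at a median log2 difference of 1.97. The comparison shares no array with the LNCaPabl-Enza groups, although all arrays enter the spread used for the call. Genes with little spread on the Enza arrays were thereby favoured, which also lowers the unadjusted p-values counted below. On the Enza arrays, all 25 had a positive difference without Enza_Ctrl replicate 2, where 51.0% of all genes did, and 23 with 12 arrays, where 54.0% of all genes did. The exceptions with 12 arrays were CST1 and OTULINL. The median difference in LNCaPabl-Enza was 0.69 without Enza_Ctrl replicate 2, beside 0.00487 over all genes. The median of 1.97 comes from the arrays that picked the genes and is raised by that choice. The sizes in the lines are therefore not compared through it. Of the 25, 16 had every Enza_Dex array above Enza_Ctrl replicates 1 and 3 (7.93% of all genes), and 11 above all 3 Enza_Ctrl arrays (3.96% of all genes). An unadjusted p under 0.05 was reached by 16 of them without Enza_Ctrl replicate 2 and by 13 with 12 arrays, beside 1.38% and 1.33% of all genes higher.

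Enza_Dex replicate 3 was the array on which these 25 genes were highest. It had the highest of the 3 Enza_Dex levels for 23 of 25 genes (92%), against 36.3% of all genes; replicate 2 was highest for 2 genes and replicate 1 for 0. Taken against the mean of Enza_Ctrl replicates 1 and 3, the median difference of the 25 genes was 0.49 on Enza_Dex replicate 1, 0.61 on replicate 2 and 1.06 on replicate 3. The level exceeded both of those untreated arrays for 18, 21 and 25 of the genes in that order, beside 30.1%, 32.7% and 33.7% of all genes. Among the untreated arrays the order was not the same: Enza_Ctrl replicate 3 exceeded replicate 1 for 7 of the 25 genes (28%), against 48.6% of all genes. Both arrays numbered 3 also had the most NR3C1 RNA of their group; whether that bears on the response was not tested, since only 1 treated and 1 untreated array had such levels. Without both arrays numbered 3 and Enza_Ctrl replicate 2, 23 of the 25 differences were positive, at a median of 0.36.

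**Figure D4:**
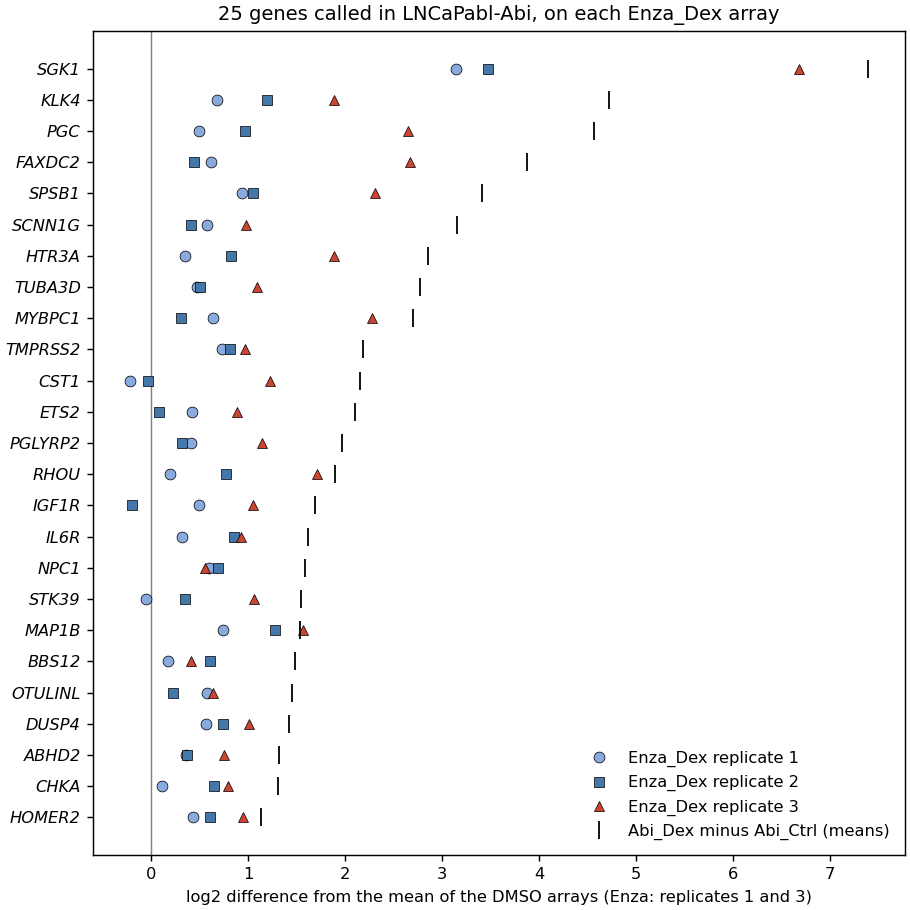
For each of the 25 genes called higher in LNCaPabl-Abi (rows), the log2 difference (horizontal axis) between each Enza_Dex array and the mean of Enza_Ctrl replicates 1 and 3 (pale blue circles, replicate 1; blue squares, replicate 2; red triangles, replicate 3), and the difference of the LNCaPabl-Abi means (vertical ticks). The triangle is the rightmost of the 3 points for 23 of 25 genes, and most points lie between 0 and the tick. The genes were picked by the LNCaPabl-Abi comparison, which favours ticks far from 0.

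In several members Enza_Dex replicate 3 stood well above the other treated arrays. PGC, the gene of the gastric protease precursor progastricsin, had 4.99, 5.19 and 4.91 in Enza_Ctrl and 5.44, 5.92 and 7.60 in Enza_Dex. SPSB1, an adaptor of a ubiquitin ligase, had 5.14, 5.55 and 5.10 against 6.06, 6.17 and 7.43. FAXDC2, a gene of the fatty acid hydroxylase family, had 6.53, 5.27 and 6.20 against 6.98, 6.80 and 9.03. All 3 separated the groups, and on all 3 the treated array numbered 3 stood more than 1 log2 unit above the other treated arrays. MAP1B, a microtubule-binding protein gene, was more even, at 7.44, 8.77 and 7.33 in Enza_Ctrl and 8.13, 8.66 and 8.94 in Enza_Dex. Its difference without Enza_Ctrl replicate 2 was 1.19 ± 0.24 (SE; limma adjusted p = 0.913), and with that array, whose level fell among the treated ones, 0.73 ± 0.37 (limma adjusted p = 0.523).

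NPC1, which exports cholesterol from lysosomes, had 10.66, 6.16 and 10.08 in Enza_Ctrl and 10.96, 11.06 and 10.92 in Enza_Dex. IL6R, the interleukin 6 receptor gene, had 8.85, 5.64 and 8.23 against 8.86, 9.39 and 9.47. In both, Enza_Ctrl replicate 2 lay far below every other array, and the difference fell from 2.01 ± 0.87 (SE) to 0.61 ± 0.22 for NPC1 and from 1.67 ± 0.64 to 0.70 ± 0.26 for IL6R when it was left out. IGF1R, the receptor gene of insulin-like growth factor 1, had 9.69, 7.56 and 9.65 against 10.17, 9.47 and 10.72, and STK39, a kinase gene of the ion transport pathway, 11.09, 10.69 and 10.89 against 10.94, 11.34 and 12.06. The groups of both genes overlapped. In the promoter table, 18 of the 25 genes had 25 windows. The half-site was found in 4 of these windows, those of IL6R, MYBPC1, SGK1 and STK39. That share is close to the 14.8% of all windows.

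The lists that follow were read against all genes, without a test of the list. No member of any list was called over all genes in either set of arrays. Among the 35 known glucocorticoid-induced genes on the array, 21 differences were positive with 12 arrays, at a median of 0.20, and 28 without Enza_Ctrl replicate 2, at a median of 0.12, beside 0.06 and 0.00487 over all genes. Without both arrays numbered 3 as well, 22 were positive, at a median of 0.07. Apart from SGK1, those with an unadjusted p under 0.05 without Enza_Ctrl replicate 2 were RGS2 and CRISPLD2. RGS2, which shortens G protein signals, had 7.92, 5.79 and 7.55 in Enza_Ctrl and 8.32, 9.10 and 9.81 in Enza_Dex, a difference of 1.34 ± 0.46 (SE) without Enza_Ctrl replicate 2. CRISPLD2, a secreted protein gene, had 5.78, 7.48 and 5.74 against 6.46, 6.80 and 6.27, and Enza_Ctrl replicate 2 lay above every treated array: the difference was 0.18 ± 0.44 with 12 arrays and 0.75 ± 0.27 without Enza_Ctrl replicate 2. TSC22D3, which encodes the anti-inflammatory protein GILZ, had 9.62, 8.80 and 8.97 against 9.64, 9.41 and 10.00, a difference of 0.39 ± 0.50 without that array, and the groups overlapped. FKBP5 and PER1 were not analysed here.

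Of 20 inflammatory genes that glucocorticoids are known to repress, 9 had a positive difference with 12 arrays and 12 without Enza_Ctrl replicate 2, with medians of -0.29 and 0.03. Of the 20, 14 are in the dim class, whose own median was -0.42 and -0.020. IL6, the interleukin 6 gene, had 3.16, 4.26 and 3.08 in Enza_Ctrl and 3.91, 3.47 and 3.73 in Enza_Dex, and the chemokine gene CXCL1 3.73, 4.75 and 3.09 against 3.97, 3.96 and 3.81. These 2 were higher at an unadjusted p under 0.05 without Enza_Ctrl replicate 2, and 0 members were lower at that level in that set. IL1B, the interleukin 1 beta gene, had 4.50, 6.50 and 4.08 against 3.70, 3.97 and 3.72, with no overlap. Its difference was -0.50 ± 0.25 (SE) without Enza_Ctrl replicate 2 and -1.23 ± 0.51 with 12 arrays. With 12 arrays it was the 1 member lower at an unadjusted p under 0.05, beside 2.62% of all genes.

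Genes of epithelial sodium transport, the pathway that SGK1 serves, were positive for 12 of 16, SGK1 included, with 12 arrays. Without Enza_Ctrl replicate 2 there were 13, and the medians were 0.51 and 0.12. Of the 16, 10 are in the bright class, whose own median was 0.37 and 0.016. Without both arrays numbered 3 as well, 10 were positive, at a median of 0.06. Besides SGK1, subunits of the epithelial sodium channel passed an unadjusted p of 0.05 in both sets. SCNN1G, the gamma subunit, had 5.09, 5.01 and 5.13 in Enza_Ctrl and 5.69, 5.52 and 6.08 in Enza_Dex, with no overlap and a difference of 0.65 ± 0.28 (SE) without Enza_Ctrl replicate 2. SCNN1B, the beta subunit, had 6.53, 3.94 and 7.06 against 7.19, 7.65 and 7.45. Its difference was 1.59 ± 0.64 with 12 arrays and 0.64 ± 0.29 without the array at 3.94. NEDD4L, a ubiquitin ligase gene that removes the channel from the surface, had 14.85, 13.15 and 14.54 against 14.87, 14.96 and 15.09, and its difference without Enza_Ctrl replicate 2 was 0.28 ± 0.20.

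Of 28 androgen-induced genes, 21 were positive with 12 arrays and 20 without Enza_Ctrl replicate 2, with medians of 0.40 and 0.18, and 19 were positive at a median of 0.09 with both arrays numbered 3 left out as well. In each of the first 2 sets 6 of them had an unadjusted p under 0.05 and were higher, beside 1.33% and 1.38% of all genes. KLK2, a kallikrein gene, had 4.23, 4.69 and 4.61 in Enza_Ctrl and 4.87, 5.40 and 6.41 in Enza_Dex. KLK4, a kallikrein gene also called in LNCaPabl-Abi, had 9.04, 7.43 and 7.62 against 9.01, 9.52 and 10.22. Enza_Ctrl replicate 1 lay just above the lowest treated array, so the groups overlapped, at a difference of 1.25 ± 0.46 (SE) without Enza_Ctrl replicate 2 and of 0.22 ± 0.50 without both arrays numbered 3 as well. KLK3, which encodes prostate-specific antigen, changed sign with that array: the difference was -0.18 ± 0.63 with it and 0.49 ± 0.47 without it. RHOU, a small GTPase gene, had 8.21, 7.31 and 7.77 against 8.18, 8.76 and 9.70. KRT19, a keratin of the luminal marker list, had 7.27, 3.71 and 5.99 against 7.35, 8.55 and 6.89.

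Of 20 androgen-repressed genes, 11 were positive with 12 arrays and 6 without Enza_Ctrl replicate 2, with medians of 0.05 and -0.04. CCN3, a matricellular protein gene, had the smallest p among them, with 3.38, 5.77 and 4.55 in Enza_Ctrl and 3.45, 2.76 and 3.53 in Enza_Dex, overlapping groups. Among 15 phosphatases and feedback inhibitors of MAP kinases, 9 and 8 were positive in the 2 sets. DUSP4, a phosphatase that limits ERK signalling, had 7.04, 6.83 and 6.50 against 7.34, 7.51 and 7.78, with no overlap and a difference of 0.77 ± 0.29 (SE) without Enza_Ctrl replicate 2. ERRFI1, a feedback inhibitor of the EGF receptor, had 13.77, 12.93 and 13.40 against 13.70, 13.99 and 14.35. Of 13 metallothioneins and zinc regulators, 12 and 9 were positive, with medians of 0.49 and 0.23; MT1X, which binds zinc, had 12.04, 12.77 and 12.66 against 12.33, 13.22 and 13.48. Of the immediate early genes, 9 and 8 of 16 were positive. FOS had 5.03, 5.87 and 5.24 against 5.01, 4.03 and 4.68, and FOSL2 had 7.94, 5.15 and 7.56 against 7.71, 8.58 and 8.55.

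For 3 lists of mostly bright genes the median changed sign with Enza_Ctrl replicate 2. All 20 chaperones and coregulators of the receptor were positive with 12 arrays and 7 without it, with medians of 0.34 and -0.03; 19 of them are in the bright class, whose own median was 0.37 and 0.016. DNA replication genes were positive for 27 of 33 with 12 arrays and for 8 without the array, with medians of 0.53 and -0.15, and cell division genes for 25 and 4 of 32, with medians of 0.26 and -0.14. For MKI67, the proliferation marker, the difference was 0.43 ± 0.39 (SE) with 12 arrays and -0.082 ± 0.25 without Enza_Ctrl replicate 2. These proliferation lists also followed the replicate numbers. Enza_Dex replicate 3 was the highest treated array for 30 of 33 DNA replication genes and 26 of 32 cell division genes, and Enza_Ctrl replicate 3 exceeded Enza_Ctrl replicate 1 for 31 and 28 of them. Without both arrays numbered 3 and Enza_Ctrl replicate 2, 11 of 33 and 10 of 32 were positive. The medians then stayed negative, at -0.12 for both lists. Housekeeping genes were positive for 10 of 11 with 12 arrays and for 6 without the array, with medians of 0.24 and 0.022.

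Lipid lists kept a positive median in both sets. Of 18 cholesterol synthesis genes, 16 were positive with 12 arrays and 15 without Enza_Ctrl replicate 2, with medians of 0.40 and 0.13, and of 14 fatty acid synthesis genes 14 and 12, with medians of 0.32 and 0.11. HMGCS1, an early enzyme of cholesterol synthesis, had 12.41, 12.04 and 12.08 in Enza_Ctrl and 12.61, 12.78 and 12.47 in Enza_Dex. DHCR7, which makes cholesterol in its last step, had 13.91, 13.55 and 13.36 against 13.99, 14.23 and 13.77, groups that overlap. These lists depended on the arrays numbered 3: Enza_Ctrl replicate 3 was below Enza_Ctrl replicate 1 for all 18 cholesterol synthesis genes, and without both arrays numbered 3 and Enza_Ctrl replicate 2 the counts were 12 of 18 and 8 of 14, with medians of 0.04 and 0.02. Of 21 genes of the unfolded protein response, 20 and 17 were positive in the 2 sets, and 8 with the arrays numbered 3 left out too.

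Markers of other cell types were followed in the same way. Basal epithelial markers had 2 of 7 positive differences in both sets, and 3 of 7 without both arrays numbered 3 and Enza_Ctrl replicate 2. S100A2, a calcium-binding protein of basal cells, had 4.27, 7.52 and 4.93 in Enza_Ctrl and 3.97, 3.96 and 3.90 in Enza_Dex, and ITGB4, the integrin beta 4 gene, 5.95, 6.32 and 5.70 against 5.07, 5.42 and 5.12. Neither gene overlapped between the groups. KRT14, a basal keratin, had 2.67, 4.45 and 2.73 against 3.23, 3.01 and 3.16, a difference of -0.15 ± 0.40 (SE) with 12 arrays and of 0.43 ± 0.19 without Enza_Ctrl replicate 2 (limma adjusted p = 1.00 after rounding). Summed over its 7 members, the basal list was at 42.4 and 42.9 on Enza_Ctrl replicates 1 and 3, at 48.5 on replicate 2, and at 40.8 to 42.0 on the treated arrays. Neuroendocrine markers were positive for 2 of 14 and endothelial markers for 2 of 10 in both sets. Without both arrays numbered 3 and Enza_Ctrl replicate 2 these counts were 6 of 14 and 2 of 10. Most of these markers are dim, and of all dim genes 15.8% were positive with 12 arrays and 46.7% without Enza_Ctrl replicate 2. Immune markers went from 1 of 14 positive to 9 when Enza_Ctrl replicate 2 was left out, and fibroblast markers from 6 of 14 to 8. The summed levels of these 4 lists were 55.6 to 75.8 on that array and 44.0 to 64.4 on the other Enza arrays. In bulk RNA, fewer cells of a type and less RNA per cell cannot be told apart, and the part of other cells in these differences was not tested.

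**Figure D5:**
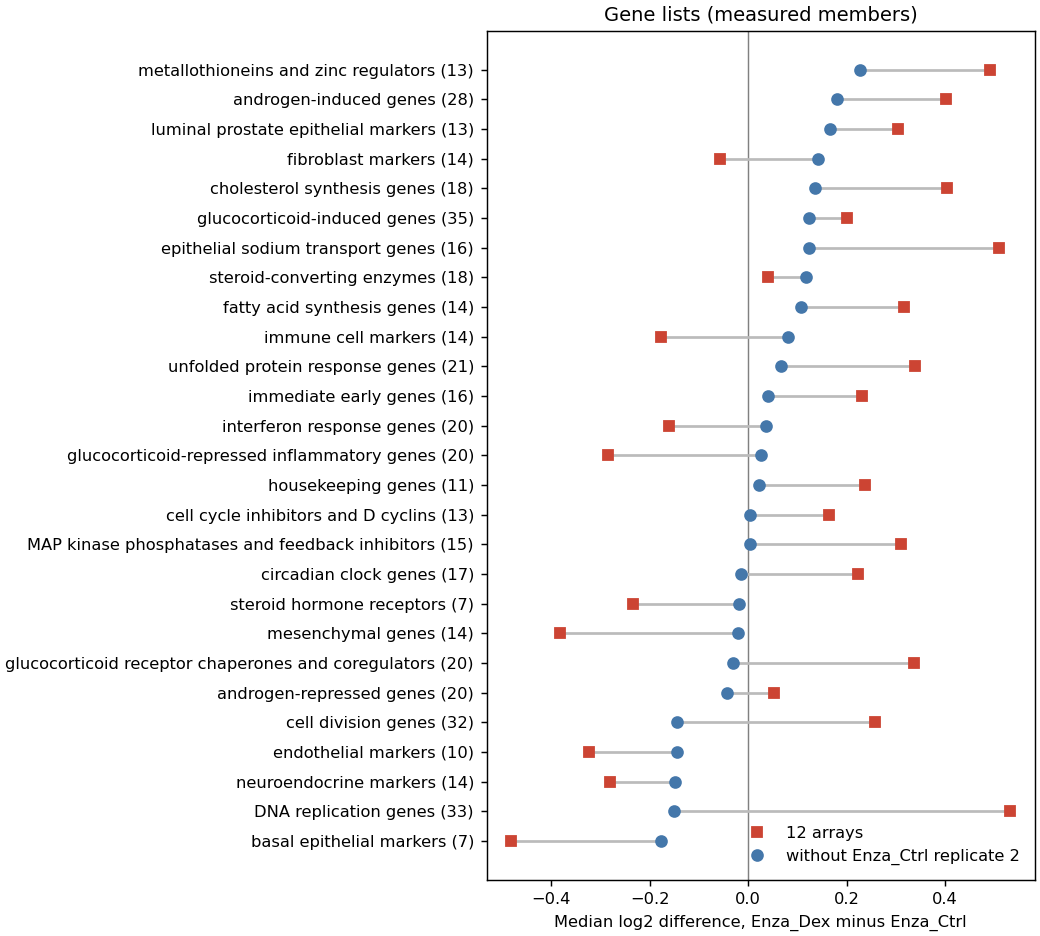
Median log2 difference, Enza_Dex minus Enza_Ctrl (horizontal axis), of 27 gene lists (rows, with the number of measured members) with 12 arrays (red squares) and without Enza_Ctrl replicate 2 (blue circles). The squares spread further from 0 than the circles, and DNA replication genes go from 0.53 to -0.15.

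Whether LNCaPabl-Enza responded differently from LNCaPabl-Abi was tested over all genes as the Enza response minus the Abi response. Limma called 0 of 17687 (0%) in either set. An unadjusted p under 0.05 was reached by 266 genes (1.5%) with 12 arrays and by 566 (3.2%) when Enza_Ctrl replicate 2 was dropped. SGK1 differed by -2.96 ± 0.95 (SE) without Enza_Ctrl replicate 2 (limma adjusted p = 0.999), its responses being 4.43 ± 0.70 in LNCaPabl-Enza and 7.39 ± 0.63 in LNCaPabl-Abi. KLK4 differed by -3.47 ± 0.62 (limma adjusted p = 0.434), SCNN1G by -2.50 ± 0.38 (limma adjusted p = 0.168) and TMPRSS2 by -1.35 ± 0.30 (limma adjusted p = 0.999). The sign was negative in each, and none passed the threshold in this fit. All of them are in the set called in LNCaPabl-Abi, a choice that favours a negative sign. MPPE1 and C1orf185, named for their LNCaPabl-Enza differences, which favours a positive sign, differed by 1.02 ± 0.36 and 0.94 ± 0.26 (limma adjusted p = 0.999 for both). SCNN1G passed the threshold in an alternative given with the dependence on processing. For SGK1, leaving out Enza_Dex replicate 3 alone gave -3.96 ± 0.44 (limma adjusted p = 0.0752), which is not a call. With that array and Enza_Ctrl replicate 2 left out, the difference was -4.08 ± 0.39 (limma adjusted p = 0.00122), and with both arrays numbered 3 and Enza_Ctrl replicate 2 left out it was -3.70 ± 0.41 (limma adjusted p = 0.0125). SGK1 was the only gene called in each of the last 2 fits.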

How the data were processed

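Per the labels' protocols, total RNA from both lines was prepared with the WT PLUS kit, labelled with biotin and hybridised to 12 Affymetrix arrays of a single colour. What the authors deposited is a log2 value for each transcript cluster on each array. RMA, limma and Affymetrix Expression Console appear in the submitters' processing notes, with neither version nor role, and the build is not given in the sources used here. RMA usually gives arrays a common distribution, but the deposited arrays do not share one, Enza_Ctrl replicate 2 least, and differences in total RNA cannot be read from them. Of 24351 rows, 17709 had 1 gene symbol in the platform annotation, all matched to RefSeq by Entrez identifier; the brightest row was kept for 20 genes with several, leaving 17687 genes. Rows without a symbol were not used here.

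Groups came from the titles. The test was lmFit and eBayes of limma 3.58.1 (R 4.3.3) on these log2 values, with 4 group means, no filter and no replicate block. P-values were adjusted by Benjamini-Hochberg over all genes and genes called under 0.05, with 12 arrays and without Enza_Ctrl replicate 2. The number of arrays limits the precision. Members and gene lists were chosen with earlier results of these data known. Genes named were called genes, up to 8 non-overlapping genes with the smallest p per direction and array set, up to 4 members of each list with the smallest p, and SGK1, NR3C1, TSC22D3, FKBP5, PER1, KLK3, KLK4, TMPRSS2 and MKI67 (1 further gene of the rule is not reported here); Y-linked genes were counted only. Members of the set called in LNCaPabl-Abi and genes with a gap at both arrays numbered 3 were named after their values were seen, as was the choice of the alternatives without the arrays numbered 3. Alternatives covered each array left out, Enza arrays only, the replicate block, array weights, a filter on dim genes, quantile normalization, the mean of a gene's rows and eBayes options. The script was tested on simulated data. Same-numbered arrays were checked for shared deviations from their group means. The correlations were 0.014, 0.0040 and 0.082 for LNCaPabl-Enza and 0.137, 0.083 and 0.303 for LNCaPabl-Abi. The Enza_Ctrl mean held Enza_Ctrl replicate 2, so the LNCaPabl-Enza values cannot decide whether the numbers mark pairs. The main fits did not take them as pairs, and the replicate block is given as an alternative. Promoter windows are RefSeq's (GRCh38.p14).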

Additional observations from a re-analysis of the deposited data

How the results depend on the processing

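Under every setting run SGK1 was higher with dexamethasone, and the count of genes called for dexamethasone was 0 or 1, the 1 being SGK1. Leaving out each array in turn gave counts of 0 to 1 with 12 arrays (1 without Enza_Dex replicate 3, which also gave 1 beside the omission of Enza_Ctrl replicate 2), 0 for the difference between lines, SGK1 differences of 3.43 to 5.19 and NR3C1 differences of -1.55 to 0.40. The ranges of the genes that changed sign in those fits were -0.12 to 0.75 for CRISPLD2, -0.33 to 0.50 for CXCL1, -0.0097 to 0.58 for IL6, -0.62 to 0.49 for KLK3, -0.082 to 0.86 for MKI67, -0.63 to 0.33 for CST1 and -0.62 to 0.48 for OTULINL. The number of genes at an unadjusted p under 0.05 reached 4102 without Enza_Ctrl replicate 1 and 3996 without Enza_Ctrl replicate 3, where Enza_Ctrl replicate 2 is 1 of 2 untreated arrays, and 1711 without both arrays numbered 3. With replicate block and 12 arrays 0 genes were called. With the block and no Enza_Ctrl replicate 2, Enza_Dex replicate 2 has no partner and adds nothing to the LNCaPabl-Enza difference. That difference then rests on the Enza arrays numbered 1 and 3. This fit called 1 gene for dexamethasone, SGK1 at 4.91 ± 0.46 (SE, limma adjusted p = 0.00123). It called 1 for the difference between lines, SCNN1G at -2.38 ± 0.30 (limma adjusted p = 0.0419). The labels give a shared number and no shared source. Enza_Ctrl replicate 3 and all 3 Abi_Ctrl arrays correlated best with the treated array of their own number, a hint from the data, while Enza_Ctrl replicates 1 and 2 did not. The 3 omissions chosen after seeing the data each gave 1 called gene, with SGK1 at 3.67, 3.69 and 3.31, and 1 for the difference between lines in both that leave out Enza_Ctrl replicate 2. With the 6 Enza arrays only and no Enza_Ctrl replicate 2, KLK3 was at 0.49, MKI67 at -0.082, CST1 at 0.33 and OTULINL at 0.48. With the block and no Enza_Ctrl replicate 2, KLK3 was at 0.61, CST1 at 0.50 and OTULINL at 0.60. With array weights, where Enza_Ctrl replicate 2 had a weight of 0.0321 against 0.503 to 2.12 for the others, KLK3 was at 0.37, MKI67 at -0.032, CST1 at 0.24 and OTULINL at 0.42. With quantile normalization CRISPLD2 was at -0.21 and CST1 at 0.085. Without both arrays numbered 3, IL6 was at -0.023 and CXCL1 at -0.27, and without Enza_Ctrl replicate 2 too, NR3C1 was at 0.038, TSC22D3 at -0.097 and OTULINL at 0.0085. Without Enza_Ctrl replicate 2 and Enza_Dex replicate 3, KLK3 was at 0.11, MKI67 at -0.24 and OTULINL at 0.40. For these sign changes the cause was not tested. The remaining values recomputed kept their sign and their side of the threshold; genes named for the gap at the arrays numbered 3, other than NR3C1, and KRT14 were not among them. List medians moved with scaling: with quantile normalization of 12 arrays that of DNA replication genes was 0.23, of cell division genes 0.052, of the receptor's chaperones and coregulators 0.11, of inflammatory genes 0.020, of MAP kinase phosphatases and feedback inhibitors -0.032 and of androgen-repressed genes -0.10. No read depth exists for arrays; dim genes are limited by background.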

Other observations

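The position of each Enza array between the lines was read from genes whose 6 LNCaPabl-Abi arrays lay at least 2 log2 units from the Enza arrays other than the one placed and Enza_Ctrl replicate 2. On Enza_Ctrl replicate 3 the level of 19 such genes lay a median 18.2% of the way from the other Enza arrays to LNCaPabl-Abi, and 84.2% of them lay in that direction. On Enza_Dex replicate 3 the median was 3.37% over 16 genes. Enza_Ctrl replicate 1 was at -6.49%, Enza_Dex replicate 1 at -2.15% and Enza_Dex replicate 2 at -7.27%, where a negative share points away from LNCaPabl-Abi. Each reference held the remaining Enza arrays, so a negative share can follow from the positive share of another array. For each array numbered 3, the other was part of the reference. A gene that this other array brought within 2 log2 units of LNCaPabl-Abi, such as NR3C1, was therefore not used. Enza_Ctrl replicate 2 was at 10.3% over 15 genes, with quartiles of -27.6% and 34.5%, the widest of the 6 arrays. Whether these positions bear on the higher SGK1 level of Enza_Dex replicate 3 was not tested.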
